A study of Mus musculus with 9 samples.

Results

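Notch receptors (Notch1 to Notch4), their ligands (Jag1, Jag2, Dll1 and Dll4) and the fringe enzymes Lfng and Mfng, 10 genes chosen by name as a family, were followed across 9 mouse arrays. All 10 were found among the 19938 genes measured. Each had exactly 1 probe set annotated to it alone, so no choice among probe sets was needed. The first group, AS cell line, holds 3 independently derived angiosarcoma lines, angiosarcoma being a cancer of the cells that line vessels. They were grown by long culture from hepatic endothelial cells of Notch1 knockout mice that carried a visible tumour of this kind. KO liver is snap-frozen liver of 3 mice with MxCre and a Notch1 gene flanked by loxP sites, in which Cre removes the exon for the signal peptide. WT liver comes from 3 mice that carry the floxed Notch1 gene without MxCre. All mice were C57Bl/6, and the liver mice of both genotypes were given 300 µg poly(I:C), a mimic of double-stranded RNA, on days 0, 3 and 6 from 4 weeks of age. MxCre is driven by an interferon-inducible promoter, so it is not limited to endothelium. An effect of Cre itself and loss of Notch1 cannot be told apart, because the WT mice carried no Cre. The age at which livers were taken is not stated in the labels.

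Notch receptors are transmembrane proteins that are bound by Jagged and Delta-like ligands on a neighbouring cell. Binding lets ADAM proteases and then γ-secretase cut the receptor, and the freed intracellular domain joins Rbpj and Mastermind-like proteins on DNA to switch on genes such as those of the Hes and Hey families. Fringe enzymes add sugars to the receptor's extracellular repeats and shift its preference between Delta-like and Jagged ligands. In vessels, Dll4 with Notch1 and Notch4 is known for restraining sprouting and for arterial identity, and in liver Jag1 with Notch2 is known for building the bile ducts.

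All values are on a log2 scale, as summarised by the authors with RMA, so a difference of 1 is a doubling. The table holds no detection calls. As a guide to dim signal, 95% of the 1027 olfactory receptor genes, most of which liver is not known to use, lay below 5.78 to 6.39, depending on the array. All 20 pan-endothelial markers stood above that level in every liver. In the AS lines 7, 6 and 9 of the 20 lay at or below it, and the mean of the list was 6.26, 6.52 and 6.37 in AS lines 1, 2 and 3, against 11.53, 11.005 and 11.53 in the KO livers. All 20 endothelial markers were lower in the lines than in the KO livers in limma at an adjusted p under 0.05, Cdh5, the cadherin of endothelial junctions, by a log2 difference of -7.38. These markers thus go against an endothelial label of the lines, which are called AS lines here as the labels do. Of 11 cholangiocyte markers 7 were higher in the lines than in KO livers, with the keratin Krt19 at a mean of 11.98 ± 0.18 in the AS lines and 5.74 ± 0.08 in the KO livers (SD, n = 3 each). Of 18 hepatocyte markers 4 were lower in the lines than in KO livers and 0 higher, beside 10.1% and 11.4% of all genes. Their mean was 7.90, 9.57 and 7.98 in AS lines 1, 2 and 3. At or below the olfactory level lay 6, 3 and 7 of them. Alb averaged 12.93 in the lines and Cyp2e1 5.42. In KO replicates 1, 2 and 3 the hepatocyte list averaged 10.61, 12.62 and 9.27, against 11.49, 12.55 and 12.54 in the WT livers. The livers thus differed in hepatocyte RNA within a genotype. In such samples fewer cells of a type and less RNA per cell cannot be told apart.

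**Figure D1:**
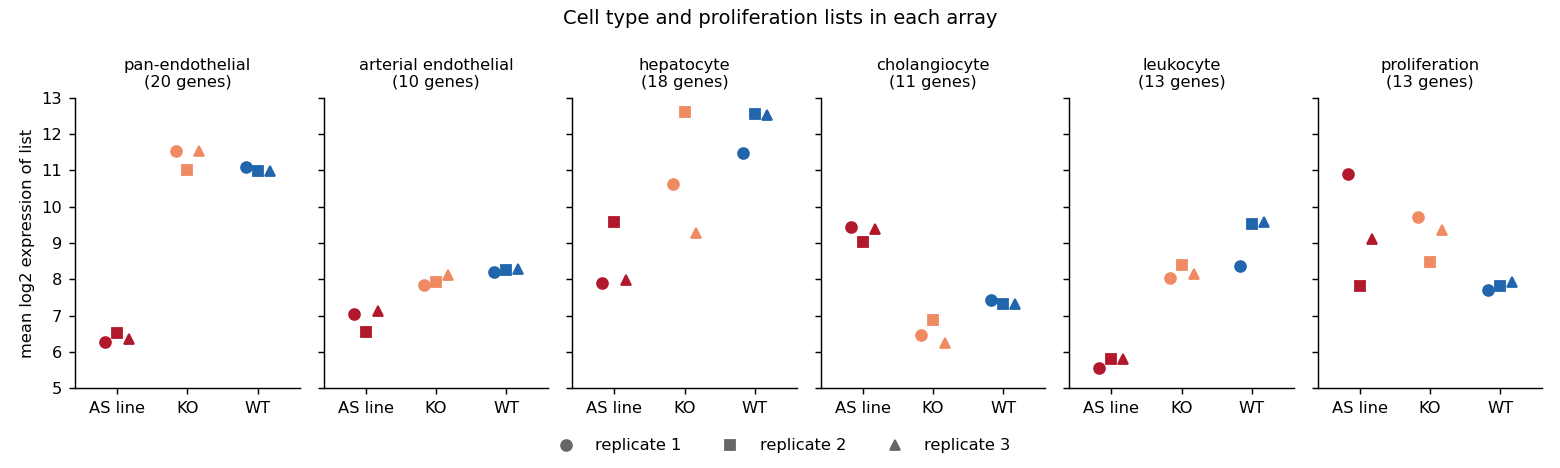
Mean log2 expression of 6 marker lists (y axis) in each array, with AS lines, KO livers and WT livers from left to right and a symbol for each replicate number. The pan-endothelial mean lies between 6.26 and 6.52 in the AS lines and at 10.99 or above in every liver, while the hepatocyte mean spreads from 9.27 to 12.62 within the KO livers.

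Promoter sequence is shown for 5 members that the comparisons below turn on: Notch1, the deleted gene; Notch4 and Dll4, lower in the AS lines; Jag1, higher in them; and Lfng, the fringe gene whose level differed between the lines. Each run is the 250 bases before a start given in RefSeq's promoter table (GRCm38.p6), 5′ to 3′ on the gene's strand. For Notch4 that start lies a few bases inside the gene's listed span. Capitals mark TGGGAA, the core that Rbpj binds, and CAGGAA, a core of ETS factors, many of which act in endothelium, on either strand, where they read TTCCCA and TTCCTG.
Notch1, chr2:26503823-26504072, minus strand: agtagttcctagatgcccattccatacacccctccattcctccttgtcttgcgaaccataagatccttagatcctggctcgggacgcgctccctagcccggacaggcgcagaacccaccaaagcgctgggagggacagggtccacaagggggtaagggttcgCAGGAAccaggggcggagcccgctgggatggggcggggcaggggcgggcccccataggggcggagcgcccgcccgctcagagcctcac
Notch4, chr17:34564045-34564294, plus strand: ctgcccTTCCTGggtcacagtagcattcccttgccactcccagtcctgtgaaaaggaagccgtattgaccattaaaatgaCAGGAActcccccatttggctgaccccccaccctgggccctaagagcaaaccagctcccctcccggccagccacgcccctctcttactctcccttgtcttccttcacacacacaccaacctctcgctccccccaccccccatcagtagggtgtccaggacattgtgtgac
Dll4, chr2:119325534-119325783, plus strand: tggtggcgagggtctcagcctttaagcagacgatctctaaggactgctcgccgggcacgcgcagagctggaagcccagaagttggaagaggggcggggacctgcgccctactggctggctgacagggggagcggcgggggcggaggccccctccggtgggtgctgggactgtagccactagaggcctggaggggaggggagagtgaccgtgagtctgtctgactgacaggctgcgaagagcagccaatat
Jag1, chr2:137116521-137116770, minus strand: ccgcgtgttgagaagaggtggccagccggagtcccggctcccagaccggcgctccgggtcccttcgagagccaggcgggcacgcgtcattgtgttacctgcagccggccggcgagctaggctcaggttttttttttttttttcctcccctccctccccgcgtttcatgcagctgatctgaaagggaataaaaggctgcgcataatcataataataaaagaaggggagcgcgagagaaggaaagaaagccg
Lfng, chr5:140607091-140607340, plus strand: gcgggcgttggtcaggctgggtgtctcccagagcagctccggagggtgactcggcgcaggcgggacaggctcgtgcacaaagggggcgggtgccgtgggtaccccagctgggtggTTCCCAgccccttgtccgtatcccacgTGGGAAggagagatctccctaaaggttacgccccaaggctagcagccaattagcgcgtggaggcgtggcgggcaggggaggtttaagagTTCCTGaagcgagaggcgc
The RBPJ core was found in Lfng only among the members, in 1 of 10 promoters of 9 members (Dll1 has 2 promoters in the table), against 21.6% of 32851 promoters of this length. In Lfng it stood 108 bases before the start on the gene's strand and 135 bases before it on the opposite strand. The ETS core was found in 3 of the 10, those of Notch1, Notch4 and Lfng, against 25.7% of all promoters. No match overlapped another, and Dll4 and Jag1 had a match to neither core in this window. A match is a description of the letters and not of binding.

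AS lines and KO livers have the Notch1 knockout in common, and their comparison also sets cultured cells against an organ. Of the 10 members, 8 passed an adjusted p of 0.05 in limma, where 21.4% of all genes did. Notch2, Jag1 and Jag2 rose (3 of 10, against 11.4% of all genes), and Notch4, Dll1, Dll4, Lfng and Mfng fell (5 of 10, against 10.1%). The family therefore did not move one way: both Jagged ligands were higher and both Delta-like ligands lower in the lines, Notch2 was higher and Notch4 lower. Notch1 and Notch3 did not pass. The 20 pan-endothelial markers fell beside Notch4, Dll1, Dll4, Lfng and Mfng, with a median log2 difference of -4.73 against KO livers and -4.61 against WT livers, and their part in the fall of these members was not tested. The 8 called members had no overlap between the groups, against 40.9% of all genes, with 3 higher (24.1%) and 5 lower (16.7%). The median log2 difference of the members was -0.65, against 0.05 over all genes.

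Set against WT livers, 9 of 10 members passed, where 28.7% of all genes did. The 3 that rose were Notch2, Jag1 and Jag2 (17.6% of all genes rose), and the 6 that fell were Notch1, Notch4, Dll1, Dll4, Lfng and Mfng (11.1% fell). Aligning the arrays at their 75th percentile kept all 9 calls and directions, while the split of all called genes was 2476 higher and 2884 lower, against 3506 and 2209 as deposited. The 9 called members had no overlap between the groups, against 47.8% of all genes, with 3 higher (28.3%) and 6 lower (19.5%). The median of the members was -1.58, against 0.02 over all genes. Both comparisons use the same 3 AS lines, so the second is no independent repeat of the first.

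In KO against WT livers, the comparison that asks what follows loss of Notch1 in the organ, 0 of 10 members passed an adjusted p of 0.05 in limma, and 0.0% of all genes did. At an unadjusted p under 0.05 there were 4 of 10, against 22.5% of all genes, with 2 higher (17.3%) and 2 lower (5.17%). Notch1 and Jag1 were lower and Notch4 and Mfng higher in every KO than in every WT array. Groups without overlap were thus seen in 4 of 10 members, against 30.3% of all genes, with 2 members higher (19.2% of all genes) and 2 lower (11.1%). The members' median was 0.02 and that of all genes -0.0011. With arrays aligned at their 75th percentile all genes had a median of -0.18, and Notch3, Dll1 and Lfng turned from positive to negative differences, at -0.15, -0.17 and -0.049. The proliferation list was higher in the KO livers, at 9.72, 8.49 and 9.37 against 7.72, 7.83 and 7.94 in the WT livers, with 0 of its 13 genes past the threshold in limma and 11 at an unadjusted p under 0.05. Its part in the members' values was not tested. An exact permutation test of 3 against 3 arrays cannot go below a 2-sided p of 0.1, which Notch1, Jag1, Notch4 and Mfng reached.

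**Figure D2:**
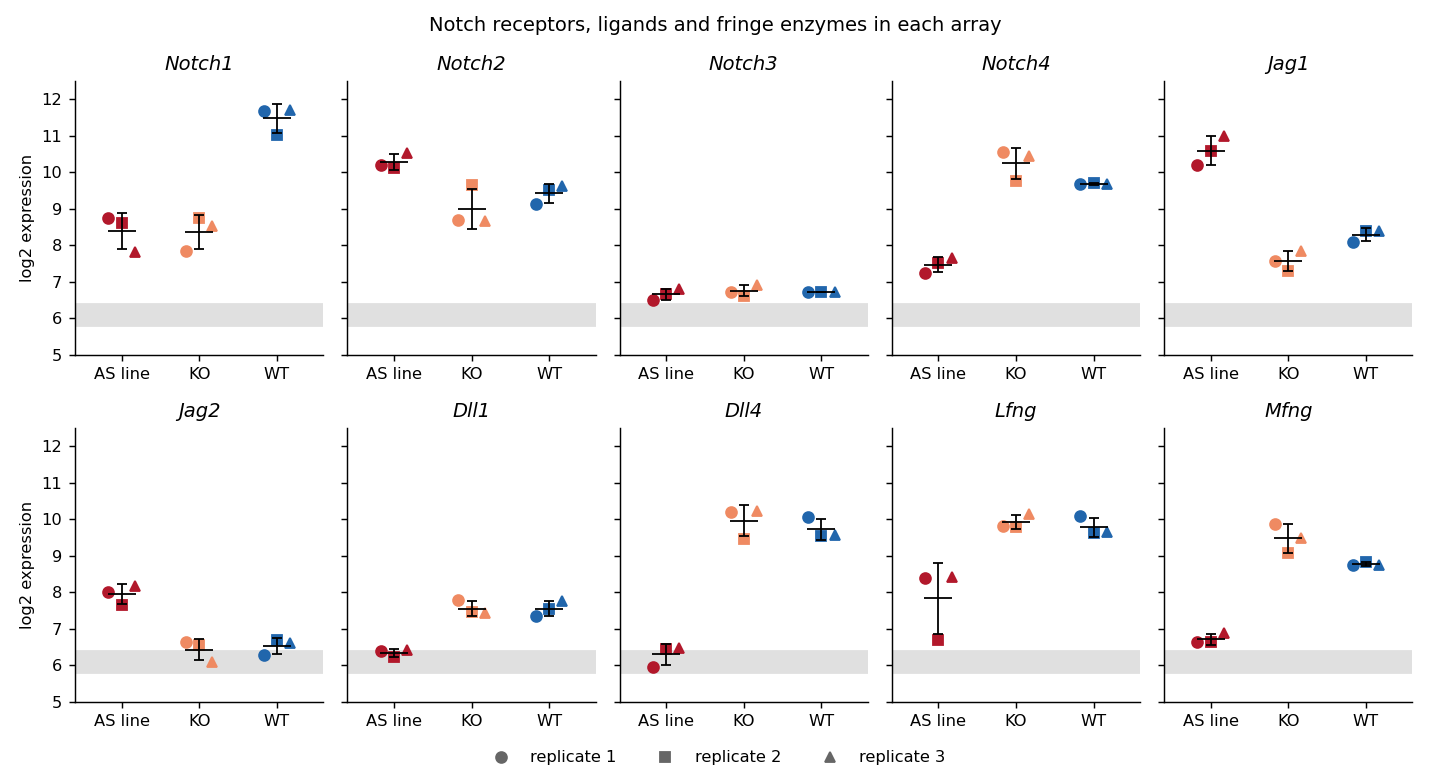
Log2 expression (y axis) of each member in the 9 arrays, with AS lines, KO livers and WT livers from left to right and a symbol for each replicate number; bars give the mean ± SD of 3 arrays, and the grey band spans the 95th percentiles of olfactory receptor genes in the 9 arrays (5.78 to 6.39). Notch1 stands apart in the WT livers, Notch4, Dll4, Lfng and Mfng are lowest in the AS lines, and Notch2, Jag1 and Jag2 are highest there.

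Notch1 (chr2:26457902-26503822 in GRCm38.p6), the receptor deleted in the KO mice, had values of 8.75, 8.61 and 7.83 in AS lines 1, 2 and 3, of 7.84, 8.75 and 8.52 in KO livers 1, 2 and 3, and of 11.69, 11.02 and 11.71 in the WT livers. The AS and KO values overlapped, and each of them lay at least 2.27 log2 units below the lowest WT liver. The KO livers held 11.6% of the WT level (log2 difference -3.10, SE 0.302, 95% interval -3.86 to -2.35), with an adjusted p of 0.0995 in limma, the smallest that any gene reached in this comparison and one shared by 366 genes. Without KO replicate 2 it passed, at -3.29 (adjusted p = 0.018). By unadjusted p Notch1 was the 8th gene of 19938. The AS lines held 11.8% of the WT level (log2 difference -3.08, SE 0.315, adjusted p = 0.00159 in limma). Between AS lines and KO livers the difference was 0.03 (95% interval -0.84 to 0.89, adjusted p = 0.971 in limma), so the data do not show whether the lines hold more or less of it than the livers. Where the probes lie relative to the deleted exon was not analysed here, so a probe outside it need not report the deletion, and whether the remaining mean of 8.39 in AS lines and 8.37 in KO livers is transcript or background was not tested. It exceeded the olfactory 95th percentile in all 6 arrays of AS lines and KO livers.

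Notch2 (chr3:98013538-98150367 in GRCm38.p6), the receptor of bile duct development, was at 10.19, 10.12 and 10.52 in the AS lines, at 8.68, 9.64 and 8.67 in KO livers 1, 2 and 3, and at 9.13, 9.52 and 9.62 in the WT livers. All 3 lines lay above all livers. The lines exceeded the KO livers 2.43-fold (log2 difference 1.28, SE 0.301, adjusted p = 0.0368 in limma) and the WT livers 1.80-fold (log2 difference 0.85, SE 0.176, adjusted p = 0.0176). The first of these calls ended when any array but KO replicate 2 was left out, with adjusted p from 0.0748 to 0.124, and the second ended without WT replicate 2 (adjusted p = 0.0548). The livers themselves overlapped, with a KO minus WT difference of -0.43 (95% interval -1.18 to 0.32, adjusted p = 0.424 in limma). Among KO livers Notch2 was highest in replicate 2, where the hepatocyte list was also highest. With that list as a covariate the KO minus WT difference was 0.0027 (adjusted p = 0.995 in limma). The list averaged 10.83 in the KO and 12.20 in the WT livers, so it and genotype cannot be fully told apart. Its part in the Notch2 values was not tested.

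Notch3 (chr17:32120820-32166896 in GRCm38.p6), a receptor known from vascular smooth muscle and pericytes, had the narrowest spread of the family. It read 6.51, 6.66 and 6.80 in the AS lines and 6.72, 6.62 and 6.92 in the KO livers, and all 3 WT livers read 6.72. No pair of groups was apart, and the 3 differences lay between -0.10 and 0.03, with 95% intervals that together span -0.40 to 0.25. These values lie 0.33 to 1.03 above the olfactory 95th percentile of their arrays, near the dim end of the range. The 3 WT livers and KO liver 1 had 1 identical value. Such repeats occur in the summarised values, with 8.27% of all genes holding a repeat among the WT livers and 9.6% among the KO livers. They can make a group's SD too small, which was not tested. Among the members Notch3, Notch4, Jag1 and Mfng held a repeat in the WT livers. There the SD of Notch4 was 0.025 and that of Mfng 0.042, and their SEs against WT livers rest in part on these.

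Notch4 (chr17:34564286-34588543 in GRCm38.p6), a receptor known mainly from endothelium, was at 7.25, 7.51 and 7.64 in the AS lines, at 10.54, 9.76 and 10.45 in the KO livers and at 9.66, 9.71 and 9.66 in the WT livers. The lines lay at least 2.02 log2 units below any liver. The log2 difference was -2.78 against KO livers (SE 0.242, adjusted p = 0.00159 in limma) and -2.21 against WT livers (SE 0.120, adjusted p = 0.000169), which are 14.5% and 21.6% of the liver levels. In the KO livers Notch4 was 1.48-fold the WT level (log2 difference 0.57, SE 0.215, 95% interval 0.04 to 1.10, adjusted p = 0.204 in limma). The groups were apart by only 0.05, KO replicate 2 being the closest to the WT livers, and without that array the difference was 0.82 (adjusted p = 0.0166). The pan-endothelial list was also higher in 2 of the KO livers, and relative to the mean of that list, a scaling that sets the median of all genes at -0.33, the Notch4 difference was 0.24 (adjusted p = 0.328).

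Jag1 (chr2:137081451-137116520 in GRCm38.p6), the ligand of bile duct development and a direct partner of Notch2, was at 10.20, 10.57 and 10.997 in the AS lines, at 7.56, 7.29 and 7.85 in the KO livers and at 8.08, 8.40 and 8.40 in the WT livers. The 3 groups were fully apart, in the order AS lines, WT livers and KO livers from high to low. The lines exceeded the KO livers 8.11-fold (log2 difference 3.02, SE 0.249, adjusted p = 0.00134 in limma) and the WT livers 4.92-fold (log2 difference 2.30, SE 0.224, adjusted p = 0.00134). The KO livers held 60.7% of the WT level (log2 difference -0.72, SE 0.171, 95% interval -1.15 to -0.30), which did not pass (adjusted p = 0.114 in limma). Relative to the pan-endothelial mean that difference was -1.05 (adjusted p = 0.237), and with the hepatocyte covariate it was -0.87 (adjusted p = 0.214). The mean of the cholangiocyte list had the same order of groups as Jag1, but not the same order of replicates within any group. Within the KO livers its keratins Krt8 and Krt18 varied most (SD 1.45 and 1.97). Both were highest in replicate 2, as the hepatocyte list was. Every other gene of the cholangiocyte list had an SD of 0.24 or less there. The list mean was 9.44, 9.04 and 9.39 in the AS lines. In the KO livers it was 6.47, 6.88 and 6.25, and in the WT livers 7.42, 7.33 and 7.32. All 11 genes were lower on average in KO than in WT livers. Part of this concerns dim values, with 5, 6 and 5 of the 11 at or below the olfactory 95th percentile in KO livers 1, 2 and 3. In WT livers 1, 2 and 3 it was 4, 4 and 3 of them. In the lines 7 of the 11 were higher than in KO livers and 0 lower, and 7 higher and 1 lower than in WT livers, the one being the claudin Cldn7 at -0.51 (adjusted p = 0.0229 in limma). Cldn4 did not pass, at -0.03 against KO and -0.23 against WT livers, nor did Epcam, at 0.37 and -0.44. The part of these markers in the Jag1 results was not tested.

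Jag2 (chr12:112907803-112929812 in GRCm38.p6), the second Jagged ligand, was at 8.02, 7.65 and 8.18 in the AS lines, at 6.64, 6.55 and 6.10 in the KO livers and at 6.27, 6.70 and 6.61 in the WT livers. Only the lines stood apart, at 2.86 times the KO level (log2 difference 1.52, SE 0.207, adjusted p = 0.00677 in limma) and 2.68 times the WT level (log2 difference 1.42, SE 0.186, adjusted p = 0.00368). The livers were near the dim end, from 0.12 below to 0.73 above the olfactory 95th percentile, and whether a floor holds these folds down was not tested. KO and WT livers overlapped, with a difference of -0.10 (95% interval -0.56 to 0.37).

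Dll1 (chr17:15367354-15376932 in GRCm38.p6), a Delta-like ligand, was at 6.40, 6.22 and 6.41 in the AS lines, at 7.78, 7.46 and 7.42 in the KO livers and at 7.34, 7.53 and 7.75 in the WT livers. The lines were below all livers and within 0.62 of the olfactory 95th percentile. They held 43.2% of the KO level (log2 difference -1.21, SE 0.124, adjusted p = 0.00279 in limma) and 43.5% of the WT level (log2 difference -1.20, SE 0.132, adjusted p = 0.00202). KO and WT livers overlapped, with a difference of 0.0094 (95% interval -0.35 to 0.37, adjusted p = 0.975).

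Dll4 (chr2:119325784-119335666 in GRCm38.p6), the Delta-like ligand of endothelium, showed the largest difference of any member. It was at 5.96, 6.46 and 6.47 in the AS lines, at 10.19, 9.47 and 10.23 in the KO livers and at 10.06, 9.54 and 9.57 in the WT livers. The lines held 7.86% of the KO level (log2 difference -3.67, SE 0.265, adjusted p = 0.000853 in limma) and 9.3% of the WT level (log2 difference -3.43, SE 0.212, adjusted p = 0.000269). The line values lay 0.18 to 0.55 above the olfactory 95th percentile, and whether a floor limits the measured difference was not tested. KO and WT livers overlapped for Dll4, with a difference of 0.24 (95% interval -0.40 to 0.89, adjusted p = 0.584 in limma). KO replicate 2 was the lowest KO liver and WT replicate 1 the highest WT liver, and without both arrays the difference was 0.66 (adjusted p = 0.0126), while relative to the pan-endothelial mean it was -0.09.

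Lfng (chr5:140607341-140615545 in GRCm38.p6), or lunatic fringe, was at 8.39, 6.70 and 8.41 in the AS lines, at 9.82, 9.80 and 10.14 in the KO livers and at 10.09, 9.63 and 9.64 in the WT livers. The lines themselves differed, with line 2 standing well below the other lines. All 3 lines were below all livers, at 23.6% of the KO level (log2 difference -2.08, SE 0.5, adjusted p = 0.0391 in limma) and 25.9% of the WT level (log2 difference -1.95, SE 0.496, adjusted p = 0.0345). Without line 2 the difference from KO livers was -1.52, with adjusted p = 0.00532, and without any other array the call against KO livers ended (adjusted p from 0.0506 to 0.129). The call against WT livers ended without any 1 WT liver (adjusted p from 0.0933 to 0.113). KO and WT livers overlapped, with a difference of 0.13 (95% interval -0.28 to 0.54).

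Mfng (chr15:78755882-78773516 in GRCm38.p6), or manic fringe, was at 6.63, 6.63 and 6.89 in the AS lines, at 9.88, 9.08 and 9.48 in the KO livers and at 8.75, 8.82 and 8.75 in the WT livers. The 3 groups were fully apart. The lines held 14.7% of the KO level (log2 difference -2.77, SE 0.221, adjusted p = 0.00119 in limma) and 24.0% of the WT level (log2 difference -2.06, SE 0.104, adjusted p = 0.000128). In the KO livers Mfng was 1.63-fold the WT level (log2 difference 0.71, SE 0.203, 95% interval 0.20 to 1.21, adjusted p = 0.14 in limma). Without KO replicate 2 that difference was 0.91 (adjusted p = 0.0299), relative to the pan-endothelial mean it was 0.38 (adjusted p = 0.24), and with the hepatocyte covariate 0.54 (adjusted p = 0.29). The third fringe enzyme, Rfng, which is not among the 10, was at 7.53, 7.57 and 7.39 in the KO livers, against 7.06, 7.23 and 7.21 in the WT livers, with a difference of 0.33 (adjusted p = 0.122 in limma). Under 16 alternative settings the Rfng difference ran from 0.0019 to 0.42.

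**Figure D3:**
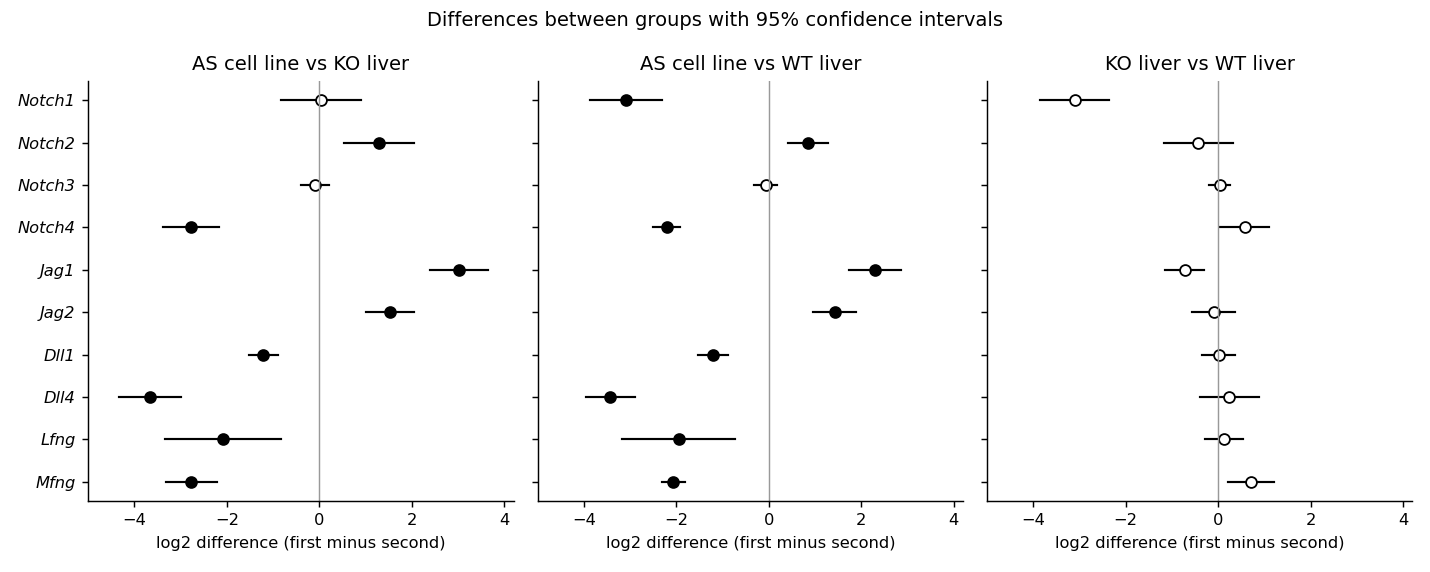
Log2 difference of each member (x axis, first group minus second) with its 95% confidence interval in limma, for AS lines against KO livers, AS lines against WT livers and KO livers against WT livers; filled circles passed an adjusted p of 0.05. In the first 2 panels Jag1, Jag2 and Notch2 lie right of 0 and Notch4, Dll1, Dll4, Lfng and Mfng left of it, and the third panel has no filled circle, with Notch1 farthest from 0 at -3.10.

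The order of the groups fell into 4 kinds. Notch4 and Mfng ran KO livers, WT livers and AS lines from high to low, with neighbouring groups apart in both steps, although the step between the livers did not pass the test. Dll1, Dll4 and Lfng had the AS lines lowest and livers that overlapped. Notch2 and Jag2 had the AS lines highest and livers that overlapped, and Jag1 had them highest with the livers apart. Notch1 was high in the WT livers alone, and Notch3 had no order. Leaving out KO replicate 2 and WT replicate 1, to which limma's array weights gave the lowest weights (0.315 and 0.274), a step chosen after seeing the data, brought 6 of 10 members past the threshold in KO against WT livers, 3 higher and 3 lower, while 4354 of 19938 genes passed as well.

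The rest of the pathway was described from 7 lists holding 58 genes, of which 56 were measured. In AS lines against KO livers 7 of the 56 were higher and 10 lower, where 11.4% of all genes were higher and 10.1% lower. Against WT livers 9 were higher and 8 lower (7 and 12 with 75th percentile scaling), where 17.6% and 11.1% of all genes were. In KO against WT livers 0 passed in either direction in limma. At an unadjusted p under 0.05, 17 of the 56 were higher and 5 of the 56 lower. Both are larger shares than the 17.3% and 5.17% of all genes, a difference that was not tested. The median log2 difference was -0.05, 0.08 and 0.11 in these 3 comparisons, beside 0.05, 0.02 and -0.0011 over all genes. Without KO replicate 1 the first count was 9 in place of 17, without WT replicate 2 or 3 the second was 11 in place of 17, and without KO replicate 2 the third was 8 in place of 0.

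The lists are small, and their counts in AS lines against KO livers stand beside 11.4% of all genes higher and 10.1% lower, so that 1 called gene in 6 or 7 is near the share of all genes. Among genes of receptor cleavage 3 of 8 were lower in the lines than in KO livers and 0 higher. They were the γ-secretase subunits Psen2 (log2 difference -1.53, adjusted p = 0.00441 in limma) and Aph1c (-1.02, adjusted p = 0.0189) and the ADAM protease Adam17 (-1.14, adjusted p = 0.00913). Of 6 genes for receptor glycosylation and folding 2 were higher, the glycosyltransferases Eogt (0.89, adjusted p = 0.0104) and Poglut1 (0.63, adjusted p = 0.0198), and 0 lower. Of 6 genes for ligand endocytosis, 1 was lower, the ubiquitin ligase Mib1 that makes ligands active (-1.06, adjusted p = 0.00452). In the nuclear complex 1 of 7 was lower, the coactivator Maml3 (-1.01, adjusted p = 0.0497), while Rbpj stood at 9.17, 10.25 and 8.74 in the AS lines against 8.50, 8.40 and 8.64 in the KO livers and did not pass (adjusted p = 0.195).

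Of 11 negative regulators 2 were higher and 2 lower in the lines than in KO livers, not far from the 11.4% and 10.1% of all genes. Numb, an adaptor that removes Notch from the membrane, differed by -1.77 (adjusted p = 0.00399 in limma), and Dtx3l, a Deltex-like ubiquitin ligase, by -1.75 (adjusted p = 0.00675). Dtx4, a Deltex ubiquitin ligase, differed by 1.82 (adjusted p = 0.0284), and Spen, a corepressor that binds Rbpj, by 0.33 (adjusted p = 0.0271). Among 12 genes listed as Notch targets 2 were higher and 2 lower, again beside 11.4% and 10.1% of all genes. The list does not give the direction in which Notch acts on each gene, so these counts do not measure Notch output. Sox9, a transcription factor of bile duct cells that is also in the cholangiocyte list, was higher by 3.05 (adjusted p = 0.000653), and the venous receptor Ephb4 was lower, by -1.48 (adjusted p = 0.00598). Hes6, a gene of the Hes family, was higher by 1.40 (adjusted p = 0.0126), and the growth regulator Myc was lower, by -0.60 (adjusted p = 0.0218). Of 7 other ligands and ligand-like proteins 1 was higher and 1 lower. Dlk2 was higher by 1.005 (adjusted p = 0.035). The endothelial protein Egfl7, which is in the pan-endothelial list as well, was lower, by -4.45 (adjusted p = 0.000378). The calls of Adam17, Psen2, Mib1, Numb, Dtx3l, Sox9, Ephb4 and Egfl7 held in all 13 alternatives. Those of Eogt and Hes6 ended in 1 each, that of Aph1c in 2, those of Poglut1, Dtx4 and Myc in 4 each, that of Dlk2 in 6, that of Maml3 in 7 and that of Spen in 9 of them.

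In KO against WT livers no gene of these lists passed, and the named values are descriptions. Hes1, the Notch-driven repressor, was at 9.46, 9.70 and 9.50 in the KO livers and at 10.40, 10.29 and 10.26 in the WT livers. Sox9 was at 7.03, 7.44 and 7.03 in the KO livers and at 8.02, 8.001 and 8.02 in the WT livers. Their differences were -0.76 and -0.85, each with adjusted p = 0.0995 in limma and with groups apart. Myc went the other way, at 11.99, 11.82 and 11.66 in the KO livers and 11.04, 11.29 and 11.24 in the WT livers, with a difference of 0.63 and the same adjusted p of 0.0995. Of the 12 genes listed as targets 4 were lower and 1 higher without overlap, beside 11.1% and 19.2% of all genes. The coactivator Maml3 had a difference of 1.09 (adjusted p = 0.0995 in limma). Hes1, Sox9 and Maml3 passed without KO replicate 2, with adjusted p of 0.0171, 0.0145 and 0.0171, and Myc did not (adjusted p = 0.0567). Of the 8 genes of receptor cleavage 4 were higher in every KO than in every WT liver and 0 lower, Adam10 with 0.45 and Aph1a with 0.36, where 19.2% of all genes were higher without overlap. Over 16 alternatives the difference ran from 0.12 to 0.60 for Adam10 and from 0.028 to 0.41 for Aph1a.

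**Figure D4:**
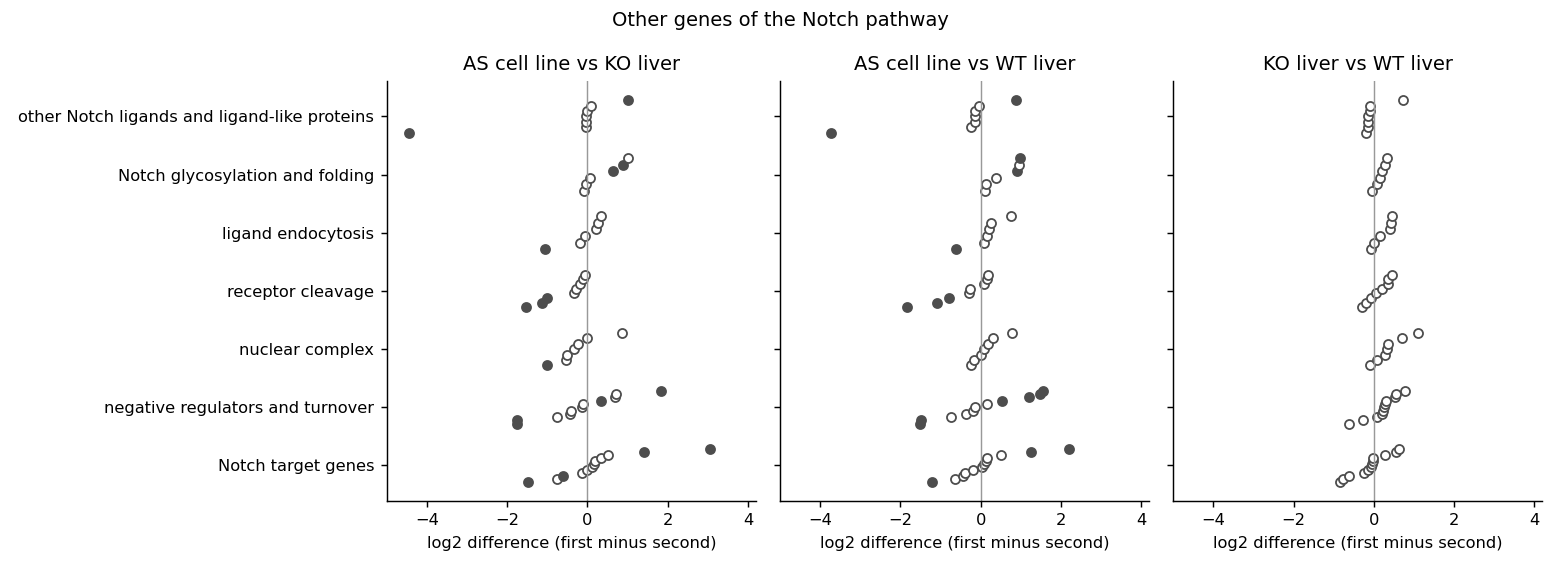
Log2 difference (x axis, first group minus second) of 56 other genes of the Notch pathway, grouped by role, in the 3 comparisons; each circle is a gene, Nrarp stands in both the list of negative regulators and that of targets, and filled circles passed an adjusted p of 0.05 in limma. Filled circles lie on both sides of 0 for the AS lines, from Egfl7 at -4.45 to Sox9 at 3.05, and no circle is filled for KO against WT livers.

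The genes nearest to each member in pattern were taken by the root mean square difference of centred log2 values over the 9 arrays. Predicted and clone-named genes, small RNAs, olfactory and vomeronasal receptors and immunoglobulin or T cell receptor segments were left out of this search. The nearest to Notch4 were Afap1l1 (0.11), Mfng (0.12) and Gypc (0.14), beside a spread of 1.22 for Notch4 itself. Mfng in turn had Pik3c2b (0.11) and Notch4 (0.12) nearest, so these 2 members were among each other's 3 nearest of the genes searched. Dll4 was nearest to the endothelial adhesion gene Icam2 (0.17), the endothelial transcription factor Sox7 (0.17) and Clec1a (0.18), beside a spread of 1.70. Jag1 had Osbpl3 (0.24) and Sox9 (0.28) nearest, beside 1.31. No gene searched came as close to Notch1, whose nearest were Etnppl (0.67) and Ntn4 (0.72), beside 1.5. The 9 arrays share the step between lines and livers, and this is not separated from likeness within a group. Over the 6 livers alone the nearest to Notch1 were Ltbp4 (0.53) and the arterial connexin Gja4 (0.74), beside a spread of 1.59. The arterial list as a whole did not share this fall, with a median KO minus WT difference of -0.04. Of its 10 genes, Gja4 included, 7 were lower and 3 higher on average. Nearest to Notch4 over the livers were Dclk2 (0.03) and Cdc23 (0.04).

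A further 6 probe sets, 2 of which held identical values, were annotated to Notch4 together with Sympk and were not used. Their means ran from 4.96 to 5.49 in the AS lines, from 5.80 to 6.37 in the KO livers and from 6.75 to 7.98 in the WT livers, with WT replicates 2 and 3 high and WT replicate 1 at the level of the KO livers. This differs from the probe set of Notch4 alone, which was higher in KO than in WT livers. The leukocyte list was likewise higher in WT replicates 2 and 3 (9.53 and 9.57) than in WT replicate 1 (8.36), and its part in these probe sets was not tested.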

How the data were processed

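The deposited log2 values per probe set were made by the authors with RMA and the oligo package, per the submitters' processing notes, from biotin-labelled total RNA on a whole-transcript array, per the labels' protocols. The extraction protocol names PHH as its material, which the labels do not explain. No version is stated in the labels. RMA equalises the arrays' distributions, which hides any shift that most genes share. Array medians ran from 6.53 to 6.63 over 35556 probe sets. Of these, 21789 were annotated to 1 gene, 1621 to several and 12146 to none in the platform table. The probe set of highest mean was used for the 999 genes with several, leaving 19938 genes. RefSeq's table (GRCm38.p6), which also gave positions and promoters, matched 21698 probe sets and changed 0 symbols.

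Groups were compared with limma 3.58.1 in R 4.3.3 (lmFit and eBayes, 2-sided) on the 6 arrays of each comparison, without covariates. P-values were adjusted by Benjamini-Hochberg over all 19938 genes, with a threshold of 0.05, and exact permutation tests were run with scipy 1.17.1. The members, lists and tests were chosen with earlier results of these data known. The text names all members, and by rule may name genes of the lists past the threshold or among the 3 of largest difference, and the 3 genes nearest to a member in pattern. The series' design text names 3 animals for each genotype and 3 lines of independent origin, and 3 arrays per group limit the precision. The fit was tested on simulated data. Tried besides were all 9 arrays in 1 fit, a replicate block, a filter on dim genes, scaling at the 75th percentile, mean of probe sets, array weights, an intensity trend, each array left out, and for the livers a scaling by endothelial genes and a hepatocyte covariate. Figures were drawn with matplotlib 3.10.9. Same-numbered replicates did not deviate together in every pair, with correlations over genes of 0.31, 0.43 and -0.39 between KO and WT livers, so the numbers were not taken to pair the arrays.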

Additional observations from a re-analysis of the deposited data

How the results depend on the processing

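In KO against WT livers, 0 genes, 0 members and 0 of the 56 pathway genes passed the threshold. With limma's array weights 5744 genes, 6 members and 28 pathway genes passed. Without KO replicate 2 and WT replicate 1, an alternative chosen after seeing the data, 4354 genes, 6 members and 17 pathway genes passed. All 9 arrays in 1 fit gave 2 genes and the hepatocyte covariate 1. Leaving out 1 array gave 0 to 1949 genes, 0 to 3 members and 0 to 8 pathway genes, the highest without KO replicate 2, and 60 genes without WT replicate 1. In AS lines against KO livers leaving out 1 array gave 2281 to 4048 genes and 9 to 14 pathway genes, with KO replicate 1 giving the lowest and 2310 genes without KO replicate 3, in place of 4275 and 17. In AS lines against WT livers it gave 3397 to 5435 genes and 11 to 17 pathway genes, lowest without WT replicate 2, with 3556 genes without WT replicate 3, in place of 5715 and 17. Aligning the 75th percentiles turned the split of that comparison to 2476 higher and 2884 lower, against 3506 and 2209, and moved the median of all genes to -0.19.

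The KO minus WT difference changed sign for 6 members. It was 0.0027 for Notch2, -0.071 for Notch3, 0.11 for Jag2, -0.12 for Dll4 and -0.048 for Lfng with the hepatocyte covariate. It was -0.30 for Notch3, -0.32 for Dll1, -0.087 for Dll4 and -0.20 for Lfng relative to endothelial genes. With 75th percentile scaling it was -0.15 for Notch3, -0.17 for Dll1 and -0.049 for Lfng, and without the 2 arrays of lowest weight -0.043 for Dll1. Leaving out 1 array, it ran from -0.050 to 0.098 for Notch3, from -0.23 to 0.068 for Jag2 and from -0.10 to 0.11 for Dll1. Notch1 in AS lines against KO livers was -0.0040 with 75th percentile scaling and ran from -0.24 to 0.31 with 1 array left out, and Notch3 in AS lines against WT livers ran from -0.14 to 0.0088. None of these values passed the threshold, before or after the change. Within a comparison, the scaling by endothelial genes and that at the 75th percentile each shift the difference of every gene by the same amount. Sign changes under these scalings are therefore not particular to the members. The cause of the other changes was not tested.

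Over all alternatives, 125 of 157 values of the members kept direction and call in KO against WT livers, and 15 newly passed. It was 112 of 127 for AS lines against KO livers, where 11 calls were lost, all of Notch2 and Lfng, and 122 of 127 for AS lines against WT livers, where 4 were lost, again of these 2 genes. The filter on dim genes left out Notch3, Jag2 and Dll1. With the replicate number as a block, 0 genes passed between the livers, 3426 genes and 7 members in AS lines against KO livers (Notch2 no longer, adjusted p = 0.0835 in limma) and 4494 genes and 9 members in AS lines against WT livers. Same-numbered arrays correlated in their deviations at 0.24, 0.34 and 0.07, and at 0.04, 0.17 and -0.16, in the comparisons of AS lines with KO and with WT livers. The 3 arrays per group and the dim values of Notch3, of Jag2 in livers and of Dll1 and Dll4 in the lines limit what these values can show.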
